A study of Drosophila melanogaster with 3 samples.

Results

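The activin branch of TGF-beta signalling is represented here by 6 genes of Drosophila melanogaster, taken by name from a table of 17611 genes: the ligand genes mav, myo, daw and Actbeta, the receptor gene babo and the Smad gene Smox. All 6 were found in the table. The RNA came from wing imaginal discs, the larval sheets of epithelium that become the wing and the back of the thorax, in wandering larvae raised at 25 °C to about 5 days after egg laying. The discs carried a single copy of apterous-GAL4 in a background written as w in the labels, which also call the genotype wild type. This driver follows apterous, a gene of the dorsal compartment, and the labels name no other transgene. There were 3 libraries, each a pool of 100 to 120 whole discs, and they form 1 group, so no condition was compared. Levels are in FPKM, the fragments counted per kilobase of exon after scaling for library size, and comparisons between genes are on this per-length scale.

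Activin-type ligands are secreted as dimeric precursors that proprotein convertases and tolloid-type proteases cut free. They bring together type II and type I receptors on the cell surface. Baboon, the type I receptor of this branch, phosphorylates Smox, the fly counterpart of vertebrate Smad2 and Smad3, which enters the nucleus with the co-Smad Medea. The parallel BMP branch uses the type I receptors Thickveins and Saxophone and the Smad protein Mad, and both branches share the type II receptors Punt and Wishful thinking. In the wing disc the activin branch is known for its part in growth, and elsewhere in the fly for neuron remodelling, metabolism and the timing of metamorphosis.

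The libraries differed in transcripts of larval fat body, gut and salivary gland, which were lowest in library 1, and results that touch on this are given with and without the library concerned.

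The receptor, the Smad and 3 of the 4 ligand genes were expressed in every library, and the ligand gene Actbeta was close to 0. Of the 6 genes, 5 reached 1 FPKM in each library, where 42.9% of all genes listed and 51.9% of protein-coding genes did so. The same 5 lay above 1 FPKM by limma's one-sided moderated test on log2(FPKM + 0.1), adjusted by Benjamini-Hochberg over 13909 genes, of which 53.4% were called. In order of mean level the genes ran mav, Smox, babo, myo, daw, Actbeta, and no library's value of one gene overlapped those of its neighbour in that order. The median of the 6 means was 38.2 FPKM, against 0.408 FPKM over all genes listed. With 6 genes, such counts describe these genes and no wider class.

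**Figure D1:**
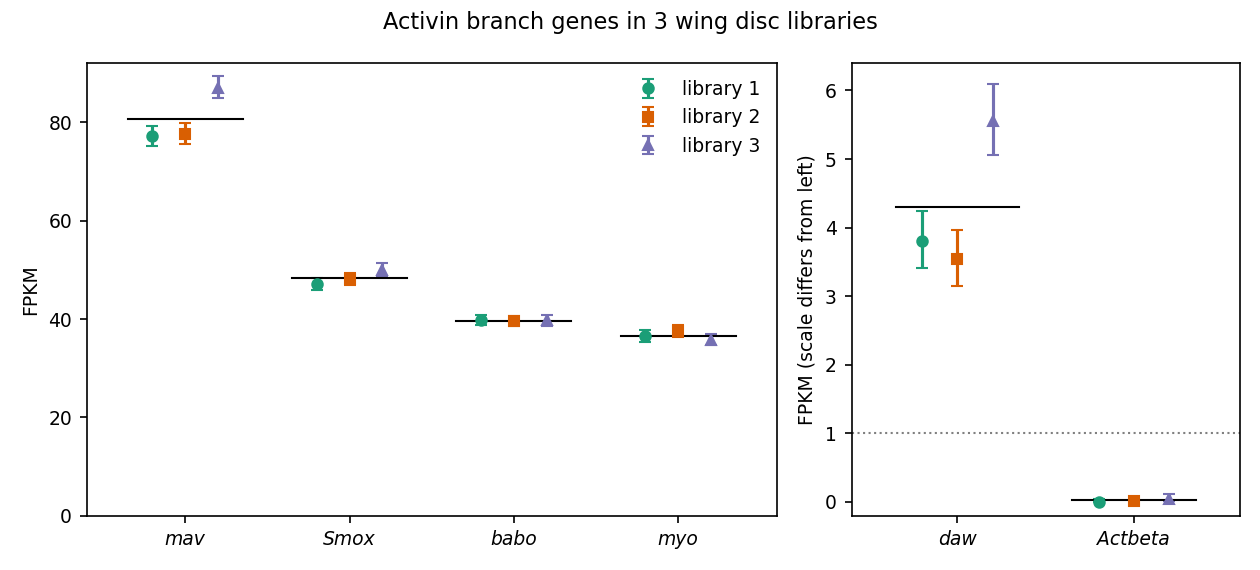
Level (FPKM) of each activin branch gene in libraries 1, 2 and 3, with mav, Smox, babo and myo on the left axis and daw and Actbeta on a smaller scale at right. Bars are exact Poisson 95% intervals of the reads behind each value, black lines are means of the 3 libraries, and the dotted line marks 1 FPKM. Library 3 stands highest for mav (87.1 FPKM), Smox (50.04 FPKM), daw (5.56 FPKM) and Actbeta (0.0436 FPKM). The babo values lie within 39.6 to 39.8 FPKM.

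Among the 4 activin-type ligand genes, mav stood highest. Maverick is a divergent TGF-beta ligand, known in flies from glia at the neuromuscular junction. Its values were 77.2, 77.7 and 87.1 FPKM in libraries 1, 2 and 3, a mean of 80.7 ± 5.59 FPKM (SD, n = 3). Libraries 1 and 2 lay together and library 3 above them, and its 95% counting interval of 84.9 to 89.4 FPKM did not overlap theirs, which ended at 79.2 and 79.8 FPKM. Without library 3 the mean was 77.4 FPKM. By limma the gene lay 6.20 ± 0.06 log2 units above 1 FPKM (SE, adjusted p = 4.21e-06). It ranked 921 among all genes by mean level. On chromosome 4 it occupies 623219 to 626031 on the minus strand (dm6 coordinates), with 1 annotated transcript and no exon shared with another gene.

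The second ligand gene, myo, encodes Myoglianin, a relative of vertebrate GDF11 and myostatin that is best known from muscle and glia. It stood at 36.6, 37.5 and 35.8 FPKM in libraries 1, 2 and 3, with a mean of 36.6 ± 0.874 FPKM (SD, n = 3). Library 2 was highest and library 3 lowest, and the 95% counting intervals of the 3 overlapped. Its limma estimate was 5.06 ± 0.04 log2 units above 1 FPKM (SE, adjusted p = 3.87e-06). Within libraries mav exceeded myo by a log2 ratio of 1.13 ± 0.13 (SD, n = 3), or 2.20-fold by means. The gene lies at chromosome 4, 690686 to 696055, on the minus strand, 64654 bases from mav, and its 3 transcripts share 1 coding sequence.

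Dawdle, the product of daw, is an activin-type ligand known from fat body and muscle, where it links feeding to metabolism. The gene was far lower than mav and myo, at 3.81, 3.54 and 5.56 FPKM in libraries 1, 2 and 3, a mean of 4.30 ± 1.10 FPKM (SD, n = 3). Libraries 1 and 2 were alike and library 3 stood 1.46-fold above library 1 and 1.57-fold above library 2. The reads behind these values numbered 331, 300 and 454, and the 95% interval of library 3, 5.06 to 6.09 FPKM, began above the ends of the others, 4.24 and 3.96 FPKM. Its lead over 1 FPKM was 1.97 ± 0.17 log2 units (SE, limma adjusted p = 0.00129). Without library 3 the mean was 3.67 FPKM and the limma call held (adjusted p = 0.00158, and 0.00742 to 0.0116 without library 2 or 1). The SD of its log2 values exceeded that of 94.8% of the 7556 genes at 1 FPKM or more in every library. It lay below mav by a log2 ratio of -4.22 ± 0.25 and below myo by -3.09 ± 0.37 (SD, n = 3 each). The gene spans 2805261 to 2812376 of chromosome 2L on the plus strand, and its 3 transcripts encode 1 protein.

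Fat body transcripts also differed between the libraries. Their sum was highest in library 3, as daw was, and lowest in library 1. The counting intervals of daw overlapped between libraries 1 and 2, so which of them was lower in daw is not resolved. Over 7 fat body marker genes, all detected, the summed level was 541, 899 and 2464 FPKM in libraries 1, 2 and 3, and 6 of the 7 were highest in library 3. The larval serum protein gene Lsp1gamma stood at 123, 216 and 939.7 FPKM, and the lipoprotein gene apolpp at 5.57, 6.35 and 25.04 FPKM. Gut markers summed to 7.35, 879.6 and 395 FPKM and salivary glue genes to 126, 811 and 288 FPKM, with library 2 highest in both. Tracheal markers summed to 372, 401 and 428 FPKM. Most of this came from verm at 217, 235 and 253 FPKM, serp at 76.5, 84.5 and 83.3 FPKM and Gasp at 58.2, 61.5 and 71.9 FPKM. The tracheal genes trh, at 16.2, 15.7 and 15.9 FPKM, and btl, at 3.53, 4.53 and 3.86 FPKM, were not highest in library 3. The last of the list, rib, had 2 reads in all. Like daw, mav and Smox were highest in library 3. The part of these tissues in the values of daw, mav and Smox was not tested. In bulk RNA of this kind, more cells of a type and more RNA per cell cannot be told apart.

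**Figure D2:**
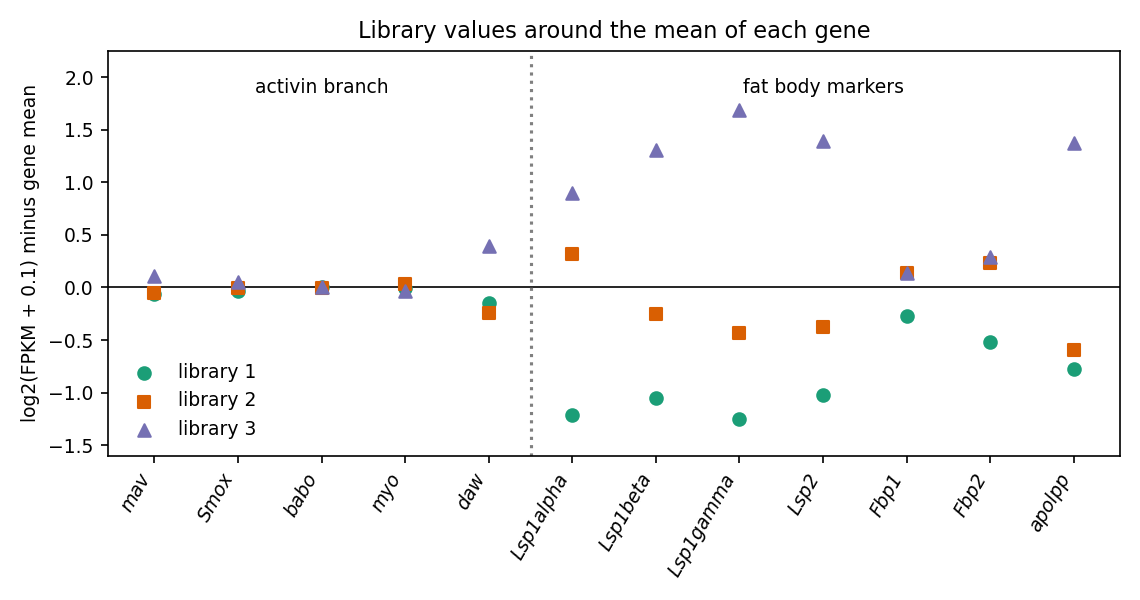
Each library's log2(FPKM + 0.1) minus the mean of that gene over 3 libraries, for the 5 activin branch genes above 1 FPKM (left) and 7 fat body marker genes (right). In library 3 daw lies 0.39, mav 0.11 and Smox 0.05 above the mean and Lsp1gamma 1.69 above it, and the babo points fall on the line.

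Actbeta encodes Activin-beta, a ligand known from neurons and from endocrine cells of the gut. It had 0, 2 and 4 reads in libraries 1, 2 and 3, which correspond to 0, 0.021 and 0.0436 FPKM. The 6 reads pooled over all libraries gave 0.0211 FPKM, with an exact Poisson 95% interval of 0.00773 to 0.0458 FPKM that covers counting error only. For library 1, which had no read, the exact Poisson 95% interval ended at 0.0377 FPKM, and the level of 3 reads was 0.0307 FPKM. No library came near 1 FPKM, and the limma test did not call the gene (adjusted p = 1 when rounded). On the scale of log2(FPKM + 0.1), daw exceeded Actbeta by 5.17 ± 0.22, myo exceeded it by 8.26 ± 0.28 and mav by 9.39 ± 0.18 (SD, n = 3 each). Their sizes depend on the pseudocount: with 1 in place of 0.1 the differences came to 2.36 for daw, 5.20 for myo and 6.32 for mav, and with 0.01 to 7.37, 10.5 and 11.6 in the same order. The gene lies at chromosome 4, 1077331 to 1084796, on the minus strand, with 1 transcript.

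Neurons, glia and muscle are tissues from which Actbeta, mav and myo are known, and their markers ran from near 0 to the level of the ligand genes. Of 8 neuronal genes 1 reached 1 FPKM throughout, elav at 2.65 ± 0.0857 FPKM (SD, n = 3), and the list summed to 3.76, 3.68 and 3.95 FPKM in libraries 1, 2 and 3. Next came Syt1 and futsch, at 0.512 and 0.501 FPKM. Of 5 glial genes 3 reached 1 FPKM throughout. The pan-glial gene repo stood at 0.0559 FPKM, and moody at 3.10, 3.45 and 3.27 FPKM in libraries 1, 2 and 3. Gli and nrv2, which epithelia also use in their septate junctions, were at 78.7 and 78.6 FPKM, close to mav, and made up most of the glial sum of 158, 164 and 160.1 FPKM. Larval muscle genes summed to 137, 168 and 148 FPKM, of which Tm1, a tropomyosin gene with wide expression, gave 82.1, 84.5 and 80.8 FPKM. The muscle actin gene Act57B stood at 25.04, 39.4 and 33.9 FPKM, Mlc2, a myosin light chain gene, at 11.8, 18.8 and 13.5 FPKM and the muscle myosin gene Mhc at 0.427, 1.19 and 0.781 FPKM. Every gene of the larval muscle list but sls was highest in library 2. sls was highest in library 1, at 2.42, 2.10 and 2.32 FPKM in libraries 1, 2 and 3. The myo value was also highest in library 2, but the counting intervals of myo overlapped between libraries, so its order of libraries is not resolved. The part of neurons, glia and muscle in the ligand values was not tested. The 10 wing disc genes were all detected and summed to 493 to 502 FPKM.

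Relative to its mean, the receptor gene babo had the smallest SD of the 6. Its values of 39.8, 39.6 and 39.7 FPKM in libraries 1, 2 and 3 gave a mean of 39.7 ± 0.114 FPKM (SD, n = 3). That SD, 0.287% of the mean, was smaller than the counting error of a single library. The 95% counting interval of a library reached 2.67% to 2.76% to either side. These intervals overlapped between libraries, as those of myo did, so which gene varied less is not resolved. By limma it lay 5.18 ± 0.03 log2 units above 1 FPKM (SE, adjusted p = 3.87e-06). The gene occupies 8952339 to 8962796 of chromosome 2R on the plus strand. Its 3 annotated transcripts encode 3 receptor isoforms that are known to differ in the ligand-binding part, through exons used in place of one another. They share 1657 coding bases and hold 146 (babo-RA), 209 (babo-RB) and 128 (babo-RC) coding bases of their own. The deposited values are per gene, so the isoforms were not measured apart.

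Among the type I receptor genes, babo sat between the BMP receptors. tkv, which encodes a receptor of Dpp, was at 129 ± 1.8 FPKM and sax, the second BMP type I receptor gene, at 34.4 ± 0.957 FPKM (SD, n = 3 each). The log2 ratio of babo to tkv was -1.70 ± 0.02 and that of babo to sax 0.21 ± 0.04, and babo made up 19.5 ± 0.13% of the summed FPKM of the 3 genes. Of the shared type II receptor genes, put stood at 42.6 ± 0.661 FPKM and wit at 23.2 ± 0.308 FPKM. babo lay just under put with a log2 ratio of -0.10 ± 0.03 and above wit with 0.77 ± 0.02. Exons of dib on the other strand cover 9.49% of the wit exons, and the strand setting of the counting is unknown here.

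Smox, the Smad gene of this branch, stood at 47.2, 48.1 and 50.04 FPKM in libraries 1, 2 and 3, with a mean of 48.4 ± 1.46 FPKM (SD, n = 3). Library 3 was highest and library 1 lowest, and their 95% counting intervals, 48.7 to 51.4 FPKM in library 3 and 46.0 to 48.4 FPKM in library 1, did not overlap. Without library 3 the mean of Smox was 47.6 FPKM. Its limma estimate was 5.46 ± 0.04 log2 units above 1 FPKM (SE, adjusted p = 3.87e-06). Mad, the Smad gene of the BMP branch, was at 36.8 ± 1.12 FPKM, the co-Smad gene Med at 27.2 ± 0.577 FPKM and the inhibitory Smad gene Dad, a target of Dpp signalling, at 47.2 ± 1.45 FPKM. The log2 ratio of Smox to Mad was 0.39 ± 0.05 and that of Smox to Med 0.83 ± 0.06 (SD, n = 3 each). Smox lies on chromosome X at 8137041 to 8142279 on the minus strand, and its 2 transcripts share 1 coding sequence. It exceeded babo in every library, with a log2 ratio of babo to Smox of -0.29 ± 0.04, and mav exceeded Smox by 0.73 ± 0.06.

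With the divergent ligand gene mav counted as activin type, activin-type and BMP-type ligand genes took similar shares of the ligand total. Over 7 ligand genes, the 4 of the activin type made up 47.6, 48.4 and 49.3% of the summed FPKM in libraries 1, 2 and 3. The BMP ligand gene gbb supplied 45.5 ± 0.8%, mav 32.1 ± 1.12%, myo 14.6 ± 0.806%, dpp 6.10 ± 0.0582% and daw 1.71 ± 0.372% (SD, n = 3 each). gbb stood at 114 ± 2.26 FPKM and dpp, which is made in a narrow stripe of disc cells, at 15.3 ± 0.598 FPKM. daw was below dpp with a log2 ratio of -1.84 ± 0.29 and below gbb with -4.73 ± 0.32. The early embryonic ligand gene scw had no read in any library, which allows up to 0.0243 FPKM by the level of 3 reads over all libraries.

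In all, 21 log2 ratios of gene pairs were taken within libraries. Each kept its sign in 3 of 3 libraries, and in none did the FPKM values of the paired genes overlap. The exact two-sided sign-flip permutation p was 0.25 for each, also after Benjamini-Hochberg adjustment over the 21, and 0.25 is the smallest that 3 libraries allow.

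**Figure D3:**
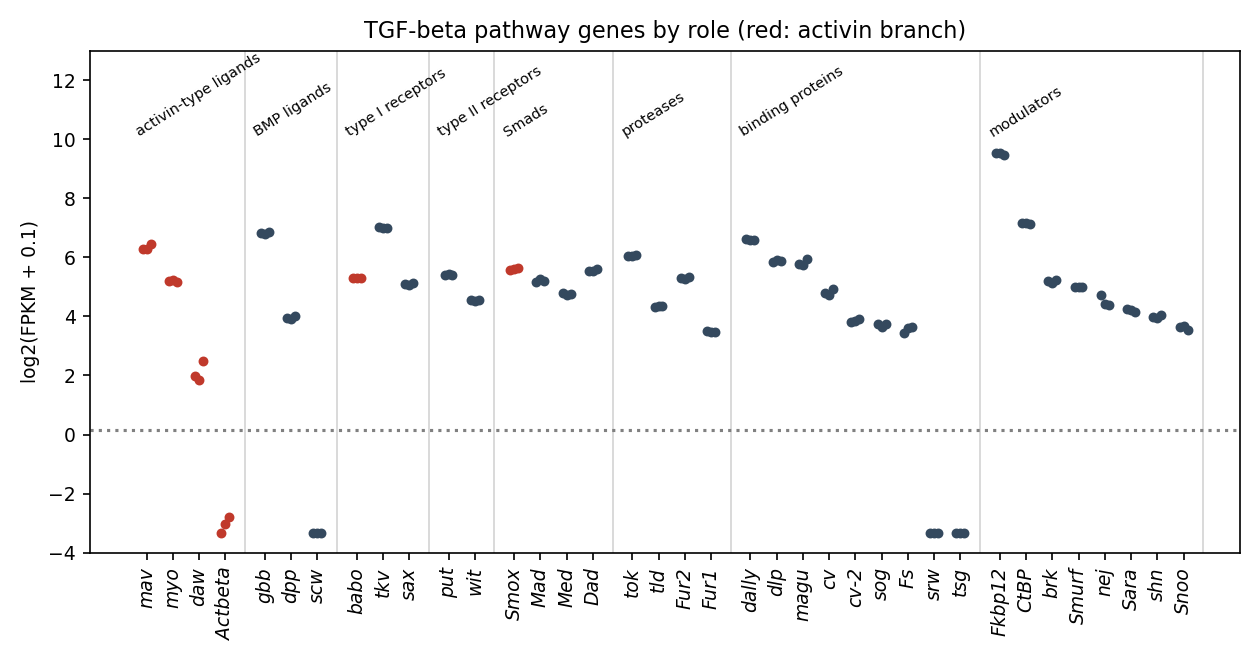
Level as log2(FPKM + 0.1) of TGF-beta pathway genes grouped by role, with 1 point per library (library 1, 2 and 3 from left to right within a gene); activin branch genes are red, the others dark, and the dotted line marks 1 FPKM. Ligands range from gbb and mav down to Actbeta and scw, while the receptor and Smad genes all lie between wit (23.2 FPKM) and tkv (129 FPKM).

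Beyond the 6 genes, 30 of 34 other listed genes of the TGF-beta pathway reached 1 FPKM in every library, where 42.9% of all genes listed and 51.9% of protein-coding genes did so. The same number passed the limma test, which called 53.4% of all genes tested. These shares also stand beside the counts by group that follow. Their median was 25.2 FPKM. All 4 genes of proteases that act on these ligands were expressed. tok, whose product Tolkin is known to cut the Dawdle precursor, stood at 66.4 ± 1.19 FPKM, and the neighbouring paralog tld at 19.98 ± 0.27 FPKM (log2 ratio of tok to tld 1.73 ± 0.03; SD, n = 3 each). The furin-type convertase genes Fur2 and Fur1 were at 39.5 ± 0.663 and 11.1 ± 0.182 FPKM.

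Of 9 genes of extracellular binding proteins 7 were expressed. Fs, the fly follistatin, binds activin-type ligands and stood at 10.8, 11.97 and 12.3 FPKM in libraries 1, 2 and 3. It exceeded daw by a log2 ratio of 1.45 ± 0.30, and exons of CG8079 and an antisense RNA cover 30.05% of the Fs exons on the other strand. The glypican genes dally and dlp, whose products hold Dpp at cell surfaces, were at 97.1 ± 1.74 and 58.5 ± 1.19 FPKM, and magu, a secreted Dpp regulator also called pentagone, at 56.8 ± 4.63 FPKM. The crossveinless genes cv and cv-2 stood at 28.03 and 14.4 FPKM and sog at 13.05 FPKM. An antisense RNA and CG3149 cover 54.9% of the cv exons on the other strand, and PIG-N and an antisense RNA cover 18.8% of the magu exons likewise. tsg and srw, known from the early embryo, had no read, with limits of 0.0436 and 0.0739 FPKM.

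All 8 genes of intracellular modulators were expressed. Fkbp12, whose mammalian counterpart binds type I receptors, was highest at 726 ± 20.4 FPKM, followed by the corepressor gene CtBP at 143 ± 3.42 FPKM. Snoo, whose Ski/Sno type protein works with Medea, stood at 12.2 ± 0.614 FPKM, and Sara, the Smad anchor of endosomes, at 18.4 ± 0.612 FPKM. Exons on the other strand cover 10.7% of the Snoo exons. The Dpp-repressed gene brk was at 36.5 ± 1.17 FPKM, the ubiquitin ligase gene Smurf at 32.1 ± 0.108 FPKM and shn at 15.9 ± 0.671 FPKM. The coactivator gene nej varied most of these, at 26.4, 21.5 and 20.8 FPKM, with library 1 highest. Of 3 genes known to depend on activin signalling in other fly tissues, the ecdysone receptor gene EcR stood at 14.4 ± 0.397 FPKM and the insulin receptor gene InR at 11.4 ± 0.406 FPKM. The third, tor, which encodes the receptor of the prothoracicotropic hormone, had 18 reads in all and stood at 0.0741 FPKM.

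A position on chromosome 4, the small dot chromosome, is shared by mav, myo and Actbeta, and was not used to choose them. Of its 80 protein-coding genes in the table, 56 (70%) reached 1 FPKM in every library, and their median was 40.9 FPKM, against 2.55 FPKM over all protein-coding genes. Within this set mav ranked 14, myo 44 and Actbeta 76, so that mav and Actbeta lay near opposite ends and myo just under the median.

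**Figure D4:**
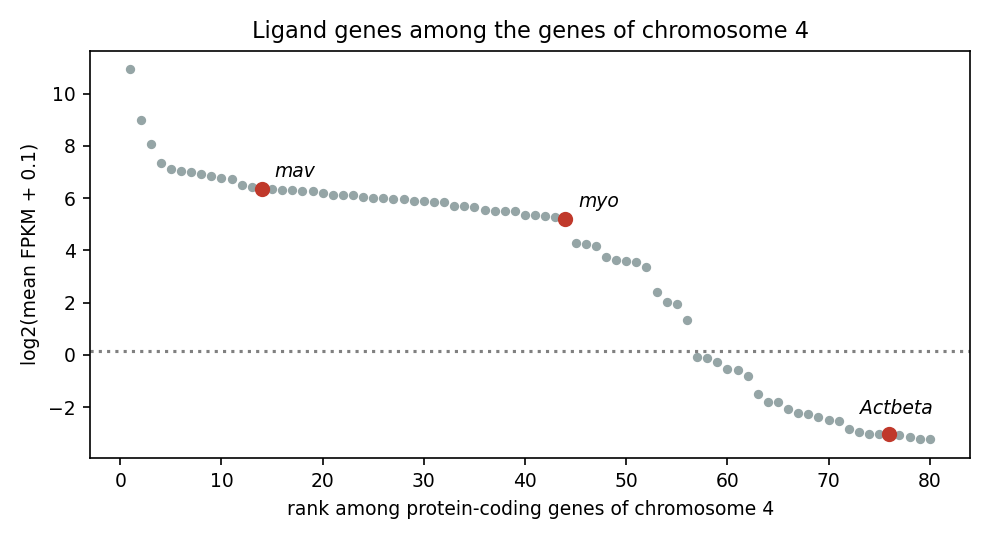
Mean level as log2(mean FPKM + 0.1) of the 80 protein-coding genes of chromosome 4 in falling order, with the ligand genes in red and a dotted line at 1 FPKM. mav is at rank 14, myo at 44 and Actbeta at 76.

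For each member above 1 FPKM, the gene of most similar values was the one with the smallest Euclidean distance over the 3 libraries in log2(FPKM + 0.1). For babo this was rn at a distance of 0.0125, for Smox CG6791 at 0.0193, for myo Hexim at 0.0239, for mav Mdh1 at 0.0362 and for daw CG10026 at 0.078. CG10026 stood at 3.86, 3.50 and 5.28 FPKM in libraries 1, 2 and 3. Its likeness to daw follows from choosing it by these same values and is no separate result. Only 4 genes lay within 0.25 of daw, against 136 for mav and 345 to 419 for Smox, babo and myo. This measure reflects level and also the differences between the 3 libraries. The SD of the log2 values was 0.342 for daw, 0.098 for mav, 0.0431 for Smox, 0.0343 for myo and 0.00414 for babo.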

How the data were processed

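RNA of 3 wing disc pools was sequenced from total RNA as paired 50 nt reads. The authors deposited 1 table of FPKM values with a column per library; columns were matched by number, as their prefix is in no label. The submitters' processing notes name the build dm6, the aligner STAR 2.7.6a, the counter featureCounts 1.6.0, DESeq2, FastQC 0.11.8 and CASAVA 1.8; for annotation, multi-mapping and strand, the settings were not stated. The labels do not say whether pools came from separate cultures, so p-values measure the spread between these samples, which may be technical.

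FPKM times merged exon length (Ensembl release 115, dm6 coordinates) gave whole multiples of 1 step for over 99.7% of genes above 0 (tolerance 0.01 of a read). These recovered reads, 25047773 to 26454949 per library, served for counting intervals (exact Poisson, 95%) and limits (3 reads); PCR copies are not independent molecules, so both cover counting error only. Med has no length under its listed ID and no recovered reads.

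Levels were tested with limma 3.58.1 (R 4.3.3) on log2(FPKM + 0.1) against 1 FPKM, one-sided, over genes above 0 in any library, with a threshold of 0.05. On this scale, differences between low genes come out too small. Members and lists were chosen with earlier results of these data known. Named were the 6 members, all listed pathway genes, the nearest gene of each member and genes from some marker lists. Of the neuronal, glial, larval muscle, adult muscle precursor and tracheal lists these were the 3 highest. Of the fat body list only Lsp1gamma of its 3 highest was named. For the other marker lists no level of a single gene was given. The marker genes repo, Mhc, sls, apolpp, trh, btl and rib were named after their values were seen. All 113 listed symbols matched the table. Alternatives were other pseudocounts and filters, each library left out, TPM scaling, other detection rules and reads in place of FPKM.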

Additional observations from a re-analysis of the deposited data

How the results depend on the processing

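The counts of 5 members above 1 FPKM, by limma or in every library, and of 30 other pathway genes stayed within 1.5 times under every alternative tried. The members called numbered 5 with pseudocounts of 1 and 0.01, with other filters, with TPM scaling and without each library in turn. With 10 reads in every library as the rule, 29 of the 33 pathway genes with recovered reads passed. Of 122 alternatives of the 21 gene ratios, 120 kept their sign. Taken on recovered reads, without dividing by length, the log2 ratio of babo to put was 0.25 and that of mav to Smox -0.0074, so these 2 orders rest on gene length. The other ratios that moved by over 1.5-fold were those of babo to sax at 1.04, daw to gbb at -3.80, daw to dpp at -2.54 and tok to tld at 2.42. For Med, Actbeta and its partners this alternative could not be computed. Chosen after seeing the data, rescaling to TPM multiplied levels by 1.89 to 1.94 and put mav at 153.6 TPM and daw at 8.19 TPM. The mean of daw was 3.67 to 4.68 FPKM with 1 library left out. Depth limits Actbeta, whose level rests on 6 reads and was 0.0105 to 0.0323 FPKM with 1 library left out. No paired analysis was possible because all libraries belong to 1 group.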
